A study of Arabidopsis thaliana with 12 samples.

Results

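The comparison described here is tunicamycin against mock in wild-type Arabidopsis thaliana seedlings of the Columbia (Col-0) accession whose transcription had been inhibited. It rests on 6 of the 12 arrays of the study, 3 labelled mock and 3 labelled tunicamycin, chosen by their titles alone. All seedlings were 10 days old, grew at 22 °C and received actinomycin D, an inhibitor of transcription, at 75 µM. Tunicamycin (5 mg per litre), or DMSO alone in the mock group, was given 2 h later for 5 h. The other 6 arrays are the same mock and tunicamycin treatments, also with actinomycin D, in ire1a ire1b plants, which are mutant in both IRE1A and IRE1B. They entered the model to share its estimate of the spread, and their values are given beside the wild type where the difference was tested. No group without actinomycin D was analysed here, so a change here is a difference between seedlings in which transcription had been inhibited in both arms; how much transcription remained was not measured. The plants were whole seedlings, so fewer cells of a type and less RNA per cell cannot be told apart. Whether the 3 samples in each group came from separate cultures is not stated, and p-values then reflect nothing beyond the spread among these samples, which may be technical.

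Proteins that leave the cell, enter the vacuole or sit in the membranes of the secretory pathway are made on ribosomes at the endoplasmic reticulum (ER), where many are N-glycosylated and all are folded. Tunicamycin blocks N-glycosylation, and unfolded protein then builds up in the ER. IRE1, a sensor that spans the ER membrane and carries an RNase, responds to this state in known ways in plants: it splices the mRNA of the transcription factor bZIP60, and it cleaves mRNAs attached to the ER, a process called regulated IRE1-dependent decay. Cells that meet ER stress also raise transcription of ER chaperones, translocon subunits and degradation factors when transcription is free to respond.

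Each probe set has a linear intensity (its signal) on each array, on a scale on which the 2% trimmed mean was the same on each array (500.06 to 500.07). Signals of the wild-type arrays correlated at 0.982 to 0.986 among the mock arrays, 0.984 to 0.988 among the tunicamycin arrays and 0.968 to 0.976 between the groups (log2 scale, across probe sets, which are not independent replicates). RNA integrity was read from the control transcripts, whose log2 ratio of 3' to 5' signal was 2.34 ± 0.11 under mock and 2.49 ± 0.20 under tunicamycin (SD, n = 3), a difference of 0.15 with an exact permutation p of 0.3, two-sided, where 3 arrays against 3 cannot go below 0.1. The 3' signal was the higher on each of these arrays, at log2 ratios from 2.21 to 2.61. The test concerns the difference between the groups and does not show that the RNA was intact. The leaf marker RCA, the Rubisco activase of chloroplasts, was bright in all 6 arrays at 26142, 26115 and 28495 under mock and 27434, 26902 and 27679.9 under tunicamycin, and its groups overlapped. Of the root markers, the peroxidase gene AT4G11290 fell (log2 -0.92, limma's adjusted p 0.0109, but 0.0649 without mock array 2 and 0.0669 without tunicamycin array 2) and AT2G47540 did not pass the test (-0.02). The 4 seed storage and 4 flower markers had no probe set named to a single gene. IRE1A and IRE1B, and BIP1 to BIP3, which encode the ER chaperone BiP, likewise had none, so they are not described. Only 3 arrays per group limit the precision of each value.

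Falls far outnumbered rises. Of 13647 probe sets above the filter on dim signal (68.7), 788 fell (5.77%) and 59 rose (0.432%) in limma's test with Benjamini-Hochberg adjustment over all of them, at a threshold of 0.05. Among the 7355 of these that carry 1 named gene, 374 fell (5.08%) and 33 rose (0.449%), each a different gene. In all 788 and all 59 the 3 mock and the 3 tunicamycin arrays did not overlap. A call at this threshold makes that likely, so it is no separate support. Uncalled probe sets can also lack overlap, and their share over all tested probe sets was not counted. At an unadjusted p below 0.05 the counts were 1396 lower and 697 higher. The count of rises depended on single arrays: it was 36 without tunicamycin array 1, 35 without tunicamycin array 2 and 36 without mock array 3, with 557, 584 and 643 falls respectively. The 374 genes that fell had a median mock signal of 819.0 and a median log2 change of -0.85, within a range of -3.49 to -0.38. They included abundant transcripts: 158 had a mock mean of 1000 or more. The 33 genes that rose were dimmer, with a median mock signal of 211.5 and a median log2 change of 0.75, within 0.30 to 1.98. The median change over all tested probe sets was 0.09 above 0 on this common scale, and a decline shared evenly by most mRNAs cannot show on such a scale.

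Transcripts of soluble secretory cargo, meaning proteins made at the ER and sent to the vacuole, the ER body, the cell wall or the outside, fell in every class examined, and no tested member of these classes rose (1 at an unadjusted p below 0.05). The 12 lists of such proteins hold 387 genes, of which 209 had a probe set named to them alone and 152 passed the filter on signal. These lists and the others below were chosen with earlier results of these data known, so their counts are a description. Of the 152, 78 fell, 144 lay below 0 and the median log2 change was -0.71. Across 1 probe set for each of the 7293 named genes, by contrast, the median was 0.09, with 2363 below 0 and 4928 above. The count of 78 ranged from 62 to 88 with each array left out in turn. The plot of log2 changes by list shows the tested members of each class.

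**Figure D1:**
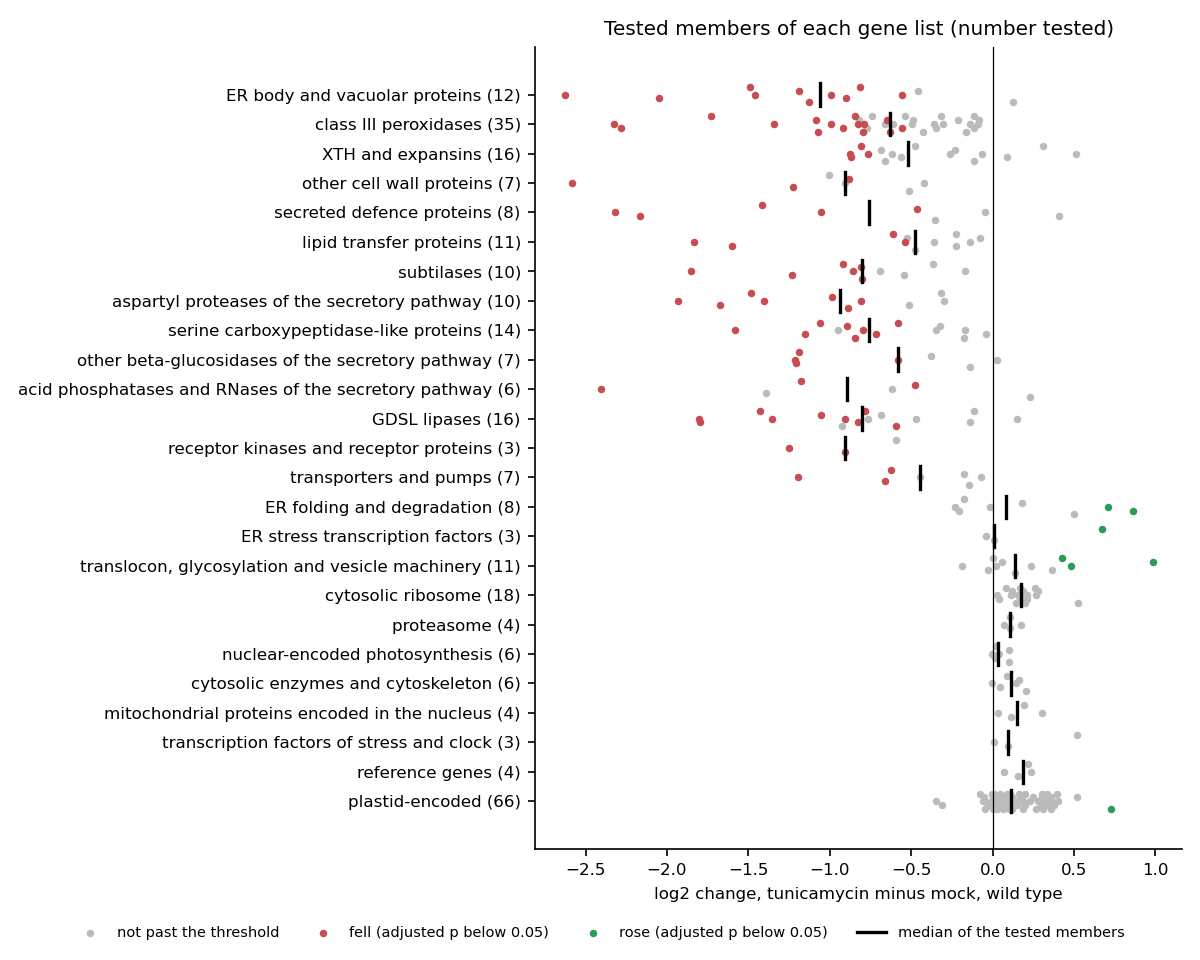
Each point is 1 tested gene of a list, placed by its log2 change in signal (tunicamycin minus mock, wild type), and the number in brackets is how many were tested. Red points fell and green points rose in limma's test, grey points did not pass it, and the black bar is the median of the tested members. The red points lie in the cargo lists at the top and the green points in the ER machinery lists and at petG among the plastid-encoded genes.

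The highest share of falls was among ER body and vacuolar proteins, of which 10 of 12 tested members fell (29 listed, 14 named) with a median log2 change of -1.06. PYK10, a beta-glucosidase stored in ER bodies, had signals of 23758, 21963 and 23271 in the 3 mock arrays and 9633, 10241 and 10328 in the 3 tunicamycin arrays. NAI2, a protein needed to form ER bodies, had 4651, 4639.8 and 4776 under mock and 1631, 1651 and 1829 under tunicamycin. For both, each tunicamycin array was less than 50% of each mock array. PYK10 fell 2.28-fold (log2 -1.19 ± 0.07 SE, limma's adjusted p 3.72e-07) and NAI2 fell 2.76-fold (-1.46 ± 0.10, adjusted p 1.71e-06). GAMMA-VPE, the vacuolar processing enzyme that matures other vacuolar proteins, had 2632, 3064 and 1950.0 under mock and 406, 444 and 370.0 under tunicamycin, and its mock arrays spread more than those of PYK10. It fell 6.18-fold (-2.63 ± 0.24, adjusted p 1.43e-05). AT4G16190, a papain-type cysteine protease, had 5632, 5862 and 4124 under mock and 1092, 1441 and 1218 under tunicamycin, a log2 change of -2.05 ± 0.27 (adjusted p 0.000254). AT1G02305, a cathepsin B-like protease, went from 2501, 2361 and 2278 to 1057, 1103 and 1102 (log2 -1.13 ± 0.10). The groups of both proteases lay well apart. The vacuolar aspartic proteinase APA1 showed a smaller fall from a high level, from 7288, 7476 and 7906 to 3865, 4385 and 4654, log2 -0.82 ± 0.09 (adjusted p 8.66e-05). The other falls of the list ran from log2 -1.49 in AT1G62290 to -0.56 in AT3G45310. Those that did not pass were BETA-VPE, a related processing enzyme (421, 413 and 435 under mock, 318, 294 and 311 under tunicamycin, log2 -0.46 ± 0.19, adjusted p 0.261), and AT2G21430 at log2 0.13.

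**Figure D2:**
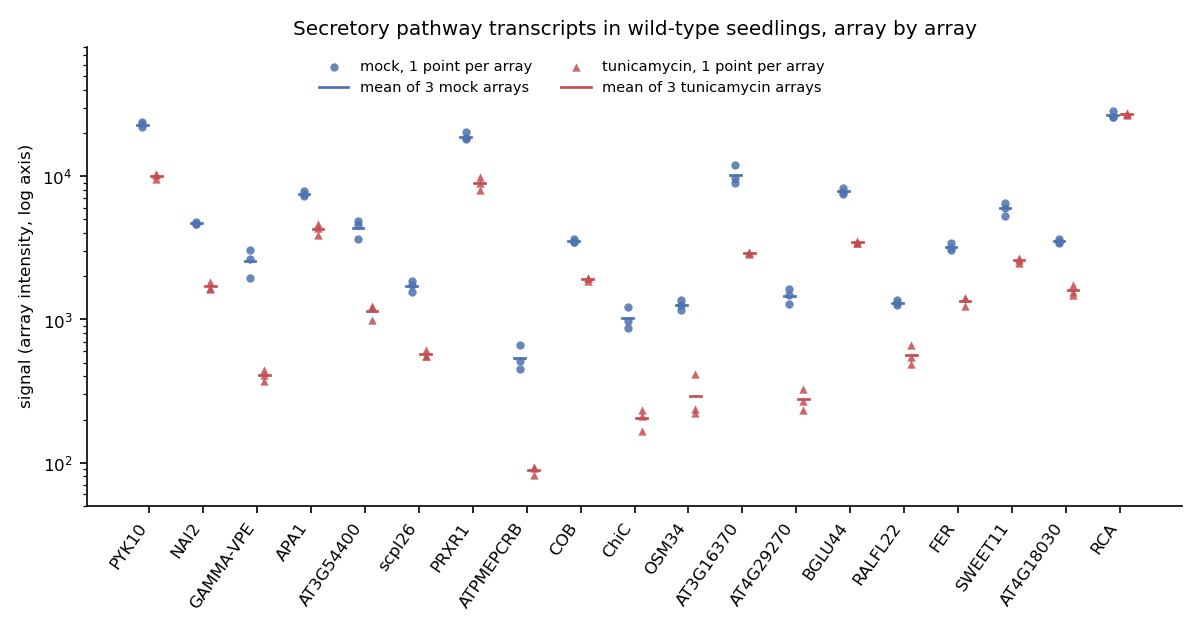
Signal of 18 transcripts of the secretory pathway and of RCA, a chloroplast protein, in each wild-type array on a log axis (array intensity). Blue circles are the 3 mock arrays, red triangles the 3 tunicamycin arrays, and bars their means. The tunicamycin arrays lie below the mock arrays for the 18, all of them picked from genes that fell, and beside them for RCA.

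Secreted and vacuolar proteases of 3 families fell at many loci. Of aspartyl proteases 7 of 10 tested members fell (16 listed, 11 named, median log2 -0.94), of serine carboxypeptidase-like proteins 8 of 14 (21 listed, 18 named, median -0.76) and of subtilases 6 of 10 (20 listed, 15 named, median -0.80). AT3G54400, an aspartyl protease, had 4532, 3667 and 4889 under mock and 1194, 997 and 1233 under tunicamycin. The lowest mock array was far above the highest tunicamycin array, a 3.81-fold fall (log2 -1.93 ± 0.12, limma's adjusted p 7.88e-07). NANA is counted in the aspartyl protease list, although its protein is described in chloroplasts, and without it 77 of 151 cargo genes fell. It was dimmer, and its groups did not overlap either, at 346, 332 and 381 under mock and 110.3, 109.6 and 112 under tunicamycin (log2 -1.67 ± 0.17). The carboxypeptidase-like scpl26 went from 1870.5, 1563 and 1731 to 554, 553 and 613, with little spread in either group (log2 -1.58 ± 0.11, adjusted p 1.09e-06). SCPL49, of the same family, was at 2229.8, 2459 and 2308 under mock and 1072, 1016 and 1059 under tunicamycin, a fall of 2.22-fold. The subtilase AT3G14067 had 519.8, 472 and 436 under mock and 102, 162 and 136 under tunicamycin, a 3.62-fold fall (log2 -1.85 ± 0.19). S1P, the subtilase that resides in the Golgi and processes membrane-bound transcription factors, had overlapping groups (167, 136 and 166 under mock and 169, 127 and 124 under tunicamycin) and did not pass the test (log2 -0.17 ± 0.19, adjusted p 0.722). Within the carboxypeptidase-like family the tested members ranged from -1.58 in scpl26 to -0.04 in scpl47, whose mock mean was 76.9.

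Enzymes and structural proteins of the cell wall fell over a wide range of size. Class III peroxidases, which act on phenolic compounds and cross-link wall polymers, fell at 15 of 35 tested loci (73 listed, 55 named), and all 35 lay below 0 with a median log2 change of -0.63. AT4G30170 had 1863, 1497 and 1641 under mock and 388, 316 and 322 under tunicamycin, a 4.87-fold fall (log2 -2.29 ± 0.20, limma's adjusted p 9.78e-06). PRXR1, the brightest of the family, went from 18408, 20269.9 and 18104 to 8079.9, 8934 and 9839. That is 2.12-fold (log2 -1.08 ± 0.15, adjusted p 0.000360), and its lowest mock array was above its highest tunicamycin array. ATPMEPCRB, a pectin methylesterase, had 662, 510.3 and 449.9 under mock and 92.4, 82.5 and 92.8 under tunicamycin. Its 5.99-fold fall (log2 -2.58 ± 0.17, adjusted p 7.88e-07) came down close to the filter signal. AT3G16850, of the pectin lyase-like superfamily, was at 968, 787 and 770.0 under mock and 231, 283 and 311 under tunicamycin (log2 -1.62 ± 0.19). COB, the GPI-anchored COBRA protein that orients cellulose deposition, had 3454, 3467 and 3663 under mock and 1934, 1845 and 1957 under tunicamycin, a log2 change of -0.88 ± 0.11 (adjusted p 0.000164), with both groups tight. In the list of other wall proteins, which holds ATPMEPCRB and COB, 3 of 7 tested members fell (47 listed, 8 named, median -0.90). Xyloglucan transglucosylases and expansins, which remodel and loosen the wall, fell at 4 of 16 tested loci (59 listed, 25 named, median -0.52), a count that was 2 without tunicamycin array 1, tunicamycin array 2 or mock array 3. The lowest p among them was that of EXGT-A3, a xyloglucan transglucosylase with 783, 853 and 859 under mock and 419, 451 and 492 under tunicamycin (log2 -0.88 ± 0.12). XTH20 was higher on average under tunicamycin (485, 441 and 311 under mock and 483, 571 and 701 under tunicamycin) but its groups overlapped and it did not pass the test (adjusted p 0.132).

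Secreted defence proteins fell at 5 of 8 tested loci (28 listed, 9 named, median log2 -0.76), and at 3 with any of mock arrays 1 to 3, tunicamycin arrays 1 and 2 or ire1a ire1b mock array 1 left out. ChiC, a chitinase, had 971, 1217 and 869 under mock and 167, 211 and 234 under tunicamycin, a 4.99-fold fall (log2 -2.32 ± 0.29, limma's adjusted p 0.000157). OSM34, an osmotin-like protein, had 1373, 1256 and 1157 under mock and 417, 238 and 223 under tunicamycin (log2 -2.17 ± 0.20, adjusted p 1.37e-05), with tunicamycin array 1 above the other two. For both, the highest tunicamycin array was below 50% of the lowest mock array. AT1G33590, a leucine-rich repeat protein, was brighter at 5657, 6612 and 5098 under mock and 1891, 2315 and 2289 under tunicamycin (log2 -1.42 ± 0.18). The small cysteine-rich LCR69 changed least of those called (6596, 6508 and 7984 under mock and 4756, 4738 and 5819 under tunicamycin, log2 -0.46 ± 0.12, adjusted p 0.0414), and its call was lost with any of 7 arrays left out (mock arrays 1 to 3, tunicamycin arrays 1 and 2, ire1a ire1b mock arrays 1 and 3), at an adjusted p of up to 0.188. The plant defensins PDF1.2 (log2 -0.04) and PDF2.1 (0.41) did not pass the test. Lipid transfer proteins, small secreted proteins that bind lipids, fell at 4 of 11 tested loci (28 listed, 11 named) with the median closest to 0 among the 12 soluble and wall lists, -0.48. That count was 2 without mock array 1, mock array 3 or tunicamycin array 3. AT2G45180 was among the brightest transcripts that fell, with 21364, 22778 and 23196 under mock and 14719.6, 15320.3 and 16286 under tunicamycin, a log2 change of -0.54 ± 0.10 (adjusted p 0.00354). AT2G48130 was at 422, 461 and 464 under mock and 148, 139 and 157 under tunicamycin, a 3.04-fold fall.

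Other secreted hydrolases fell as well. GDSL lipases, a large family of secreted esterases, fell at 9 of 16 tested loci (26 listed, 24 named, median log2 -0.81). AT3G16370, the brightest of them, had 9778, 9002 and 11917 under mock and 2873, 2977 and 2889.7 under tunicamycin, with tunicamycin arrays that differed by little and lay 3.49-fold below mock (log2 -1.802 ± 0.16, limma's adjusted p 1.08e-05). Of acid phosphatases and RNases 3 of 6 tested members fell (26 listed, 9 named, median -0.90). AT4G29270, an acid phosphatase family protein, had 1471, 1287 and 1623 under mock and 233, 271 and 325 under tunicamycin, a 5.31-fold fall (log2 -2.41 ± 0.14, adjusted p 3.72e-07). AT4G29260, a related gene beside it, was at 578, 609.5 and 624 under mock and 251, 276 and 275 under tunicamycin and fell 2.26-fold. Beta-glucosidases outside the ER body list fell at 4 of 7 tested loci (14 listed, 10 named, median -0.58), and at 2 without mock array 1 or 2. The brightest of them, BGLU44, had 8269.9, 7797 and 7560.3 under mock and 3552, 3399 and 3411 under tunicamycin (log2 -1.19 ± 0.10, adjusted p 6.11e-06).

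RALF-like genes encode small secreted peptides that bind receptor kinases at the cell surface, and 3 of the 7 tested members, chosen for naming after their values were seen, fell. RALFL22 had 1303, 1359 and 1258 under mock and 485, 547 and 658 under tunicamycin (log2 -1.22 ± 0.16, limma's adjusted p 0.000240), RALFL33 had 1670.5, 1934 and 1379 under mock and 664, 810.0 and 863 under tunicamycin (log2 -1.09 ± 0.20) and RALFL31 had 472, 499 and 508 under mock and 224, 203 and 299.9 under tunicamycin (log2 -1.04 ± 0.15). In each of these 3 every tunicamycin array lay below every mock array. RALFL34, brighter than them, had 2589.9, 2430.2 and 2687 under mock and 2591, 2569.6 and 2710.1 under tunicamycin, with groups that overlapped and a log2 change of 0.03 ± 0.11 (adjusted p 0.918). The receptor kinase FERONIA (FER), which binds RALF peptides, is among the membrane proteins.

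Membrane proteins of the plasma membrane and the vacuole were covered by few named probe sets, and 5 of 10 tested members of the lists fell, with a median log2 change of -0.61. The lists hold 149 genes, of which 11 had a named probe set; the aquaporins, cellulose synthases and ER membrane enzymes had none. The count of 5 became 3 without mock array 1, tunicamycin array 1 or mock array 2. FER had 3054, 3429.9 and 3156 under mock and 1237, 1405 and 1415 under tunicamycin, and each tunicamycin array was less than 50% of each mock array (log2 -1.25 ± 0.14, limma's adjusted p 7.99e-05). THE1, the related receptor kinase THESEUS1 that monitors the cell wall, was dimmer at 379.7, 332 and 294 under mock and 161, 194 and 180.2 under tunicamycin (log2 -0.91 ± 0.17, adjusted p 0.00374). GSO1, a leucine-rich repeat receptor kinase, was at 130.2, 122 and 158 under mock and 91.6, 75.0 and 107 under tunicamycin and did not pass the test (log2 -0.59 ± 0.25, adjusted p 0.272). SWEET11, a sugar exporter of the plasma membrane, had 6020.3, 6547 and 5308 under mock and 2705, 2491 and 2590.2 under tunicamycin (log2 -1.19 ± 0.19, adjusted p 0.00111). The vacuolar sugar transporters SWEET16 (log2 -0.66 ± 0.17, adjusted p 0.0328) and SWEET17 (-0.62 ± 0.15, adjusted p 0.0199) passed by less. SWEET16 lost its call with any of 5 arrays left out (mock arrays 1 and 2, tunicamycin arrays 1 and 3, ire1a ire1b mock array 1), at an adjusted p of up to 0.156, and SWEET17 with any of 4 (mock arrays 1 and 2, tunicamycin arrays 1 and 2), at up to 0.0960. VHA-A3, a subunit of the vacuolar proton pump, had overlapping groups at 3004, 2759.7 and 3602 under mock and 2516, 2990.0 and 2924 under tunicamycin (log2 -0.15 ± 0.13). AT4G26710, annotated as a subunit e of that pump and outside the lists, had 8008, 7632 and 8054 under mock and 5728, 5602 and 6012 under tunicamycin, a small fall (log2 -0.45 ± 0.09, adjusted p 0.00518).

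Several whole families, some of multi-span or Golgi membrane proteins and some of wall or other proteins, were taken up after their values were seen. Their counts are a description. Putative methyltransferases of the Golgi, which act on wall polysaccharides such as pectin, fell at 13 of 18 tested loci (28 members, 23 named), and all 18 lay below 0 with a median log2 change of -0.55. AT4G18030 had 3459, 3638 and 3437 under mock and 1489, 1565 and 1751 under tunicamycin (log2 -1.14 ± 0.13, limma's adjusted p 6.69e-05), AT1G26850 had 5007, 4729 and 5305 under mock and 3161, 3269 and 3308 under tunicamycin (-0.63 ± 0.08) and AT1G29470 had 5937, 5382 and 6049.5 under mock and 4375, 4277 and 4055 under tunicamycin (-0.45 ± 0.09). The change differed in size among these 3 bright members, and no group overlapped. Nonaspanins, proteins with many membrane spans in the Golgi and endosomes, fell at 5 of 8 tested loci (12 members, median -0.63). AT2G01970 was at 1035, 1225 and 1131 under mock and 529.6, 557 and 504 under tunicamycin (log2 -1.09 ± 0.10), while the bright AT5G35160 was at 1886, 2069 and 2064 under mock and 1719, 1600.3 and 1737 under tunicamycin and did not pass (-0.25 ± 0.09, adjusted p 0.170). MATE transporters, which export metabolites across the plasma membrane or into the vacuole, fell at 8 of 23 tested loci (56 members, 37 named, median -0.42). AT5G38030 had 478, 435 and 464 under mock and 169.9, 159 and 172 under tunicamycin (log2 -1.46 ± 0.13) and AT1G11670 had 477, 466 and 441 under mock and 159, 207 and 165 under tunicamycin (-1.39 ± 0.19), while 6 MATE genes lay above 0. Of DUF642 proteins, a plant family of wall proteins, 4 of 7 fell (10 members, 8 named, median -0.80). AT2G34510 went from 356, 323 and 296 to 100.2, 98.5 and 101 and AT5G11420 from 3111, 3237 and 3393 to 1064, 1223 and 1159. Their falls were 3.25-fold and 2.83-fold from mock levels far apart. Dirigent proteins, which steer phenol coupling in the wall, fell at 3 of 9 loci (median -0.43), and that count was 1 without mock array 1 or 2. Berberine bridge enzyme-like proteins fell at 1 of 9, AT5G44380 (log2 -1.797), and at 2 without mock array 3. Other membrane families, counted by gene symbol, had few falls. TBL genes fell at 2 of 13 tested loci (15.4%, median -0.29), TET genes at 1 of 8 (12.5%, -0.22) and PRA1 genes at 1 of 6 (16.7%, -0.19). Over all named genes 5.13% fell.

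No gene fell in the lists of proteins made outside the ER. None of 45 tested nuclear genes in the lists for cytosolic ribosome, proteasome, photosynthesis, cytosolic enzymes and cytoskeleton, mitochondria, stress and clock factors and reference genes (196 listed) fell or rose in limma's test. Over all named genes 5.13% fell, and at that share lists of 45 genes, or of the 66 plastid genes below, would hold only a few falls. At an unadjusted p below 0.05, 0 of the 45 were lower and 9 higher, against 694 and 402 of the 7293 named genes. Their log2 changes ran from -0.01 to 0.52 with a median of 0.14, a little above that of all named genes, and 43 lay above 0. With only the 6 wild-type arrays in the fit, 3 of them rose. The 18 ribosomal protein genes, with mock means from 3849 to 20004, lay between 0.03 and 0.52. Chloroplast proteins encoded in the nucleus, such as RCA (0.02 ± 0.08) and the light-harvesting protein LHCB4.1 (0.04), lay near 0. Of 66 tested genes encoded in the plastid 0 fell and 1 rose, with a median of 0.11 (0 and 4 at an unadjusted p below 0.05). The exception was petG, a small subunit of the cytochrome b6f complex, at 339, 450.1 and 389.6 under mock and 794, 504 and 677 under tunicamycin (log2 0.73 ± 0.20, adjusted p 0.0418), and its call was lost with any of 6 arrays left out (mock arrays 1 to 3, tunicamycin arrays 1 and 3, ire1a ire1b mock array 1), at an adjusted p of up to 0.212.

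Cargo genes and genes made outside the ER, in lists chosen with earlier results known, were also set side by side at like signal. The named genes were cut into 5 bins of equal size by their mean log2 signal over the 12 arrays. In the brightest bin 36 of 52 tested cargo genes fell, in the next 24 of 33 and in the middle bin 10 of 26, against 0 of 40, 0 of 2 and 0 of 3 genes of the nuclear lists made outside the ER. The next and the dimmest bin held 6 falls of 22 and 2 falls of 19 cargo genes and no gene of the other lists. The share of all named genes that fell also grew with signal, from 0.48% in the dimmest bin over 1.78%, 5.69% and 8.57% to 9.12% in the brightest. A dim gene without a call is therefore not shown to be stable. Of the 374 falls, 8 had a tunicamycin mean below the filter signal of 68.7, so that the sizes of these falls are uncertain. AT1G33600, a leucine-rich repeat protein with the largest fall, is one. It varied widely at 725, 1489.6 and 304 under mock and 47.7, 109.6 and 44.3 under tunicamycin, a log2 change of -3.49 ± 0.60 (adjusted p 0.00208) that ran from -4.08 without mock array 3 to -2.93 without mock array 2. AT3G56060, of an oxidoreductase family, is another, at 220.4, 342 and 240.0 under mock and 39.1, 56.3 and 49.1 under tunicamycin (-2.46 ± 0.36).

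**Figure D3:**
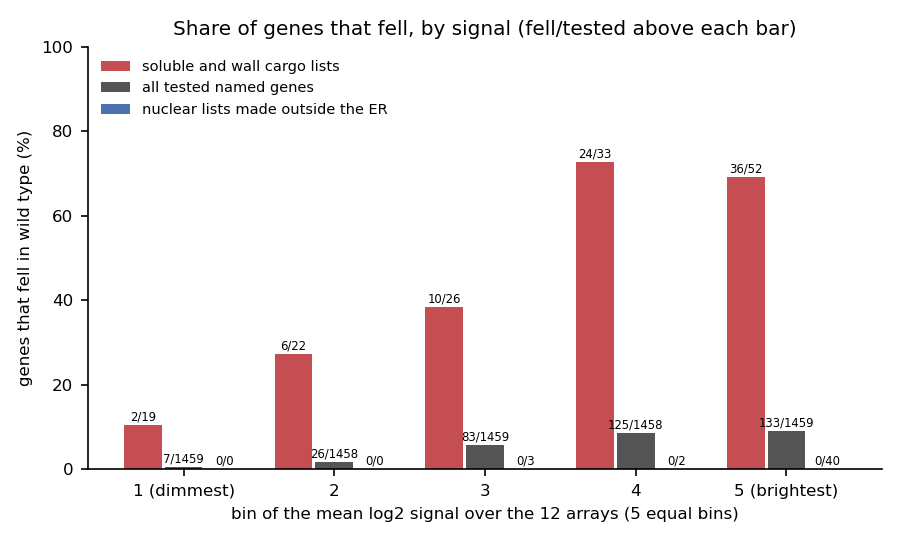
Share of tested genes that fell in wild type (vertical axis, percent) by bin of mean log2 signal over the 12 arrays (horizontal axis, 5 bins of equal size), with the number that fell and the number tested above each bar. Red bars are the soluble and wall cargo lists, grey bars all named genes, and the nuclear lists made outside the ER have no bar because none fell. In the brightest bin 36 of 52 cargo genes fell against 0 of 40 of the lists outside the ER.

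Transcripts for machinery of the ER itself did not fall, and some rose. Of 22 tested genes for folding, degradation, translocation, glycosylation, vesicle transport and ER stress transcription factors (60 listed, 23 named), 0 fell and 6 rose, with a median log2 change of 0.10 (0 and 7 at an unadjusted p below 0.05). That count of 6 was 3 without mock array 1. AT3G60540, a beta subunit of the Sec61 translocon through which proteins enter the ER, had 326, 279 and 268 under mock and 589.8, 555 and 574 under tunicamycin, a 1.98-fold rise (log2 0.98 ± 0.15, limma's adjusted p 0.000907). DER1, a derlin that acts in degradation of ER proteins, had 257, 281 and 226 under mock and 468, 426 and 489 under tunicamycin (log2 0.86 ± 0.15, adjusted p 0.00202). AT5G07340, a calnexin that folds glycoproteins, had 563, 651 and 515 under mock and 1003, 899 and 915 under tunicamycin (log2 0.71 ± 0.14, adjusted p 0.00453). In these 3 genes every tunicamycin array lay above every mock array. AT1G62020, a subunit of the coatomer that coats vesicles returning to the ER, had 1007, 1031 and 1082 under mock and 1442, 1351 and 1400.1 under tunicamycin (log2 0.43 ± 0.09, adjusted p 0.0105), and its adjusted p was 0.0583 without tunicamycin array 1 and 0.0567 without mock array 1. AT1G29310, an alpha subunit of Sec61, had 479, 575 and 566 under mock and 689, 725 and 855 under tunicamycin (log2 0.48 ± 0.13, adjusted p 0.0417). It lost its call with any wild-type array or ire1a ire1b mock array 1 left out, at up to 0.190. BZIP60, the transcription factor whose mRNA IRE1 splices, had 928, 904 and 687 under mock and 1045, 1425 and 1554 under tunicamycin (log2 0.67 ± 0.17, adjusted p 0.0348), and lost its call with any of 5 arrays left out (mock arrays 1 to 3, tunicamycin arrays 2 and 3), at up to 0.165. The deposited signal does not separate its spliced and unspliced forms. BZIP28 and BZIP17, the membrane-tethered factors of ER stress, had overlapping groups, at 257, 283 and 178 under mock and 238, 254 and 197 under tunicamycin and at 171, 185 and 168 under mock and 202, 127 and 209.5 under tunicamycin (log2 -0.04 ± 0.19 and 0.01 ± 0.20). CRT1b, a calreticulin, was bright and level at 2536, 2371 and 2668 under mock and 2483, 2356 and 2657 under tunicamycin (-0.02 ± 0.13). OS9, a lectin of ER degradation, had 273, 357 and 289 under mock and 403, 444 and 447 under tunicamycin without overlap but did not pass (log2 0.50 ± 0.15, adjusted p 0.0758).

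**Figure D4:**
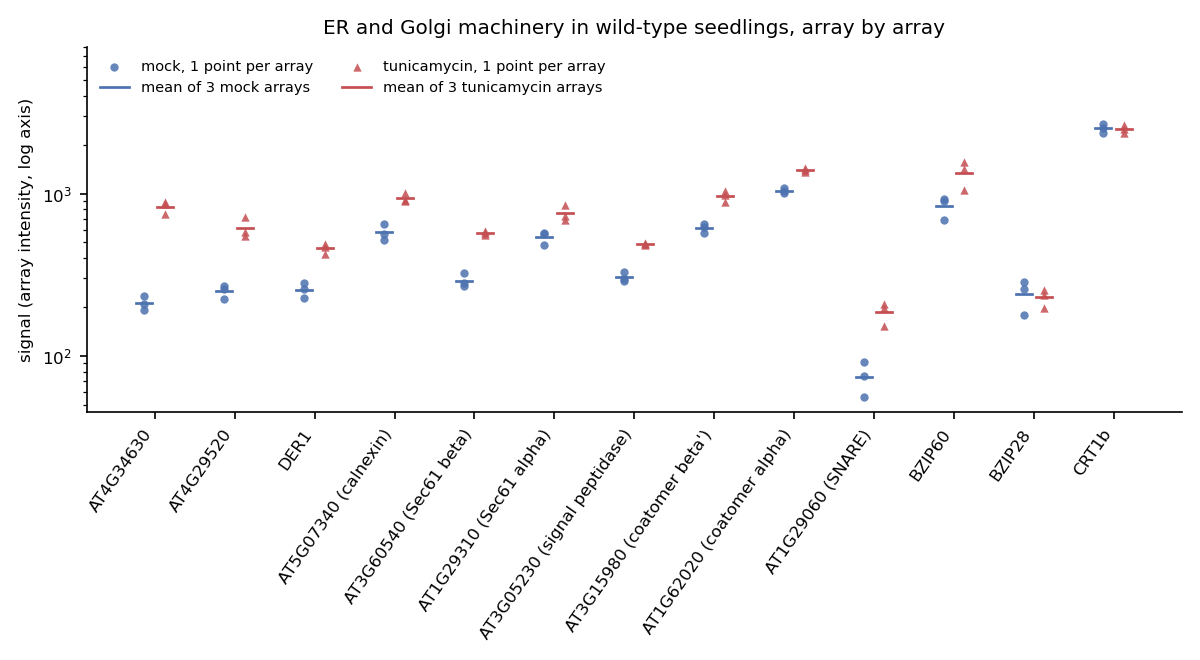
Signal of 13 ER, Golgi and ER stress transcripts in each wild-type array on a log axis (array intensity), with blue circles for mock, red triangles for tunicamycin and bars for the means of 3 arrays. The tunicamycin arrays lie above the mock arrays for the 11 genes on the left and overlap them for BZIP28 and CRT1b.

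Subunits of the same complexes did not all move. Of 5 tested Sec61 subunits 2 rose, of which AT1G29310 depended on single arrays as above, and the other 3 lay at log2 0.05 to 0.36. Of 9 coatomer subunits 2 rose, AT1G62020 and AT3G15980, a beta' subunit at 568, 621 and 653 under mock and 1031, 980.2 and 885 under tunicamycin (log2 0.65 ± 0.13, limma's adjusted p 0.00768), and the other 7 lay at -0.03 to 0.23. AT3G05230 was the only one of 6 signal peptidase subunits to rise, at 289.5, 328 and 299 under mock and 480.1, 486 and 496 under tunicamycin (log2 0.68 ± 0.14, adjusted p 0.00672), while the others lay at 0.03 to 0.13. These families were taken up after their values were seen. The largest rises belonged to genes outside the lists. AT4G34630, a gene without a named function in the tables used, had 235, 207 and 192 under mock and 885, 859 and 743 under tunicamycin, a 3.92-fold rise (log2 1.97 ± 0.18, adjusted p 1.29e-05). AT4G29520, an ER-localized protein, had 259.6, 271 and 224 under mock and 717, 547 and 579.9 under tunicamycin (log2 1.28 ± 0.19, adjusted p 0.000607). AT1G29060, a SNARE-type protein of vesicle fusion, was dim under mock, at 91.1, 74.7 and 55.9 under mock and 209.8, 198 and 153 under tunicamycin (log2 1.35 ± 0.22). AT5G54860, of a transporter family, had 155, 158 and 101 under mock and 385, 293 and 301 under tunicamycin (log2 1.26 ± 0.19). AT3G55700, a UDP-glycosyltransferase family gene, had 66.6, 59.6 and 55.7 under mock and 228, 251 and 239.7 under tunicamycin; its mock mean lay below the filter signal, so the size of its 3.96-fold rise is uncertain. Of the 33 genes that rose, 6 had such a mock mean, 7 belong to a list, 2 more to a family taken up later and 24 to neither.

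Most genes that fell are in no list. Of the 374, 83 belong to a list, 44 more to the families taken up later and 247 to neither. Probe sets known to match several transcripts of a family (suffix s or x) made up 0.58% of the named ones without a call and 0 of the 374 and 33 called, though single-gene probe sets can still pick up close paralogs. Genes that fell had a tested neighbour on the chromosome that also fell in 24 of 197 cases (12.2%), against 210 of 3477 (6.04%) for named genes that did not fall. AT4G29260 and AT4G29270 are such a pair.

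The same treatment of ire1a ire1b seedlings gave almost no calls. There, 0 of the 13647 probe sets fell (0%) and 6 rose (0.044%), and none of the 374 named genes that fell in wild type passed limma's test. At an unadjusted p below 0.05, 182 probe sets were lower and 319 higher there, among them 7 and 9 of the 374. The median of the 152 soluble cargo genes in ire1a ire1b was 0.02 on the log2 scale. An effect past the threshold in one genotype and not in the other does not by itself show a difference, so the interaction was tested in the same fit: 406 probe sets (2.98%) were lower in wild type than in ire1a ire1b by their response and 12 (0.0879%) higher. The 374, and the cargo genes among them, were selected by their wild-type change, which is part of the interaction. That selection raises the share that passes. Of the 374, 181 passed the interaction. Of the 78 soluble cargo genes that fell 48 passed it, with PYK10 at an interaction of -1.28 ± 0.10 (limma's adjusted p 1.30e-05), GAMMA-VPE at -2.74 ± 0.34 (adjusted p 0.000611) and ATPMEPCRB at -3.12 ± 0.24 (adjusted p 1.30e-05). The falls that did not pass it include LCR69 (-0.45 ± 0.18, adjusted p 0.298), AT2G45180 (-0.48 ± 0.14, adjusted p 0.103) and AT4G26710 (-0.43 ± 0.12, adjusted p 0.0921), for which a difference between the genotypes was not detected. The same holds for larger falls, SWEET16 (-0.77 ± 0.24, adjusted p 0.137), SWEET17 (-0.44 ± 0.21, adjusted p 0.464) and the widely varying AT1G33600 (-3.26 ± 0.85, adjusted p 0.0590). For rises the picture was mixed. AT4G34630 and AT4G29520 rose in both genotypes (log2 1.58 ± 0.18 and 1.27 ± 0.19 in ire1a ire1b, adjusted p 0.00256 and 0.0275). AT5G07340 had a change of 0.77 ± 0.14 in ire1a ire1b, not past the test there (adjusted p 0.115), against 0.71 ± 0.14 in wild type. Of the 33 rises 2 passed the interaction, AT3G55700 (2.11 ± 0.34, adjusted p 0.00334) and AT1G10980 (1.505 ± 0.31, adjusted p 0.0158). AT1G10980 was dim, at 57.4, 61.8 and 51.5 under mock and 144, 90.8 and 108 under tunicamycin, and its rise in wild type (adjusted p 0.0138) did not pass without tunicamycin array 1 (0.0855) or mock array 3 (0.0594). Other rises had smaller changes in ire1a ire1b, not past the test there. These were 0.32 ± 0.22 for AT1G29060, 0.38 ± 0.15 for AT3G60540 and 0.07 ± 0.13 for AT3G15980. BZIP60 had 0.20 ± 0.17 and DER1 0.52 ± 0.15. None of them passed the interaction (adjusted p 0.105, 0.227, 0.164, 0.527 and 0.615 in that order). A difference between the genotypes was thus neither detected nor excluded for them.

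**Figure D5:**
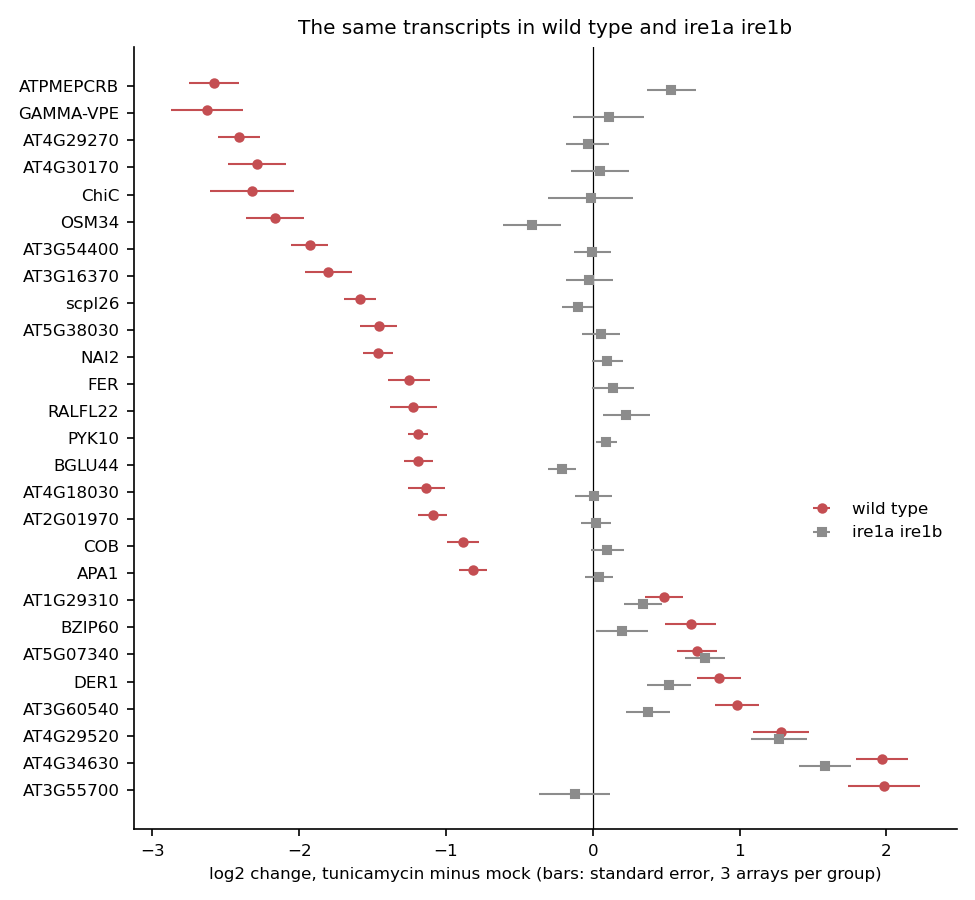
Log2 change in signal, tunicamycin minus mock, of 27 transcripts in wild type (red circles) and ire1a ire1b (grey squares), with bars for the standard error of limma's model (3 arrays per group). The 19 transcripts at the top, from ATPMEPCRB to APA1, lie at -0.82 or lower in wild type and between -0.41 and 0.54 in ire1a ire1b, while AT4G34630 and AT4G29520 near the bottom are high in both.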

How the data were processed

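Total RNA of whole seedlings was labelled from the 3' end and measured on one-colour Affymetrix-type arrays, per the labels' protocols. The authors deposited linear array intensity per probe set. The submitters' processing notes name MAS5, version not given in the sources used here, and the values themselves show a common scaling of each array. Each change is thus relative to the bulk of transcripts. Groups were taken from the sample titles. From the 22746 probe sets that are not array controls, those with a mean log2 signal over the 12 arrays above the 40th percentile (log2 6.10, signal 68.7) were kept. Genes were named where the platform table gave 1 gene, 13513 in all, and 13436 of these matched the RefSeq table. With limma 3.58.1 under R 4.3.3, 1 mean per group was fitted over all 12 arrays, followed by eBayes with trend, two-sided, with Benjamini-Hochberg adjustment over 13647 probe sets and a threshold of 0.05. The fit was tested on simulated data. Log2 changes carry the SE of the model (3 arrays per group). Each gene of a list is represented by its brightest probe set.

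Genes were named by a rule: per direction the 30 largest changes without overlap of arrays, the brightest 15 falls and 10 rises, the 4 members of each list with the smallest p, and fixed ER stress genes. Of the 80 genes with values by array, 23 lie outside it, among them the RALF, MATE, Golgi and nonaspanin genes, and were chosen after their values were seen, as were other list or family members named by their log2 change. The members and lists were chosen with earlier results of these data known. Alternatives were the filter, quantile or median normalization, log2(signal + 50), no intensity trend, array weights, the 6 wild-type arrays alone, a replicate block and each array left out.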

Additional observations from a re-analysis of the deposited data

Results flagged for a closer look

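For 45 of the genes named above the response to tunicamycin differed between wild type and ire1a ire1b, by the interaction in limma's fit after Benjamini-Hochberg adjustment. The values are the wild-type log2 change minus that in ire1a ire1b. For 43 genes the response was lower in wild type and for 2 higher. All 45 were picked from a comparison that shares the wild-type arrays with the falls described above, so they are no separate support for them.

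Among proteins of the ER body and vacuole the difference was -2.74 for GAMMA-VPE, -1.93 for AT4G16190, -1.56 for NAI2, -1.28 for PYK10, -1.18 for AT1G02305 and -0.86 for APA1. Among secreted and vacuolar proteases it was -1.98 for AT3G14067, -1.93 for AT3G54400, -1.48 for scpl26 and -1.29 for SCPL49. NANA, an aspartyl protease described in chloroplasts, had -1.77. Among wall proteins it was -3.12 for ATPMEPCRB, which had a positive change in ire1a ire1b (0.54 ± 0.17, not past the test), -2.34 for AT4G30170, -1.72 for AT3G16850, -1.05 for EXGT-A3, -0.98 for COB and -0.95 for PRXR1. The DUF642 genes had -1.78 (AT2G34510) and -1.43 (AT5G11420).

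Defence and lipid transfer proteins had differences of -2.31 for ChiC, -1.75 for OSM34, -1.29 for AT1G33590 and -1.797 for AT2G48130. Other secreted enzymes had -2.37 for AT4G29270, -1.78 for AT3G16370, -1.10 for AT4G29260 and -0.98 for BGLU44, and AT3G56060, dim under tunicamycin, had -2.67. The RALF peptides had -1.45 for RALFL22, -1.15 for RALFL33 and -1.07 for RALFL31. Membrane proteins had -1.63 for AT1G11670, -1.51 for AT5G38030, -1.39 for FER, -1.31 for THE1, -1.28 for SWEET11 and -0.72 for TMT1. Golgi and endosome proteins had -1.14 for AT4G18030, -1.11 for AT2G01970 and -0.57 for AT1G26850. TSC10A had -0.81 and FATB -1.16.

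ATERDJ3B, an ER chaperone of the J-domain type, did not pass in either genotype (-0.18 ± 0.11 in wild type, 0.55 ± 0.11 in ire1a ire1b), yet its difference of -0.73 passed. The differences above 0 were 2.11 for AT3G55700 and 1.505 for AT1G10980, both with wild-type mock means below the filter signal. With each array left out in turn 38 of the 45 passed throughout, and the exceptions were PRXR1, RALFL33, SWEET11, AT5G11420, ATERDJ3B, TSC10A and TMT1. Under each of the other settings that tested the gene, 40 of the 45 passed throughout. The exceptions were PRXR1 and RALFL33 (no filter, no intensity trend), TMT1 (these and quantile normalization), AT1G26850 (no intensity trend, adjusted p 0.0531) and AT1G10980 (no filter, 0.0528).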

How the results depend on the processing

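Falls among all tested probe sets numbered 788, between 707 and 1086 under other settings and 557 to 896 with each array left out in turn. Rises numbered 59, and 110 with only the 6 wild-type arrays, 89 with a replicate block and 169 with array weights. With median centring they numbered 42, and with each array left out 35 to 84. The cause was not tested. Falls made up 86.5% to 95.7% of calls throughout, and no named gene changed sign where it was called. Median centring moved the share of falls from 93.0% to 95.7%. Of 77 falls named by the rule 65 were called under each of the 21 settings that tested them, and of 33 rises 12. Dim genes such as AT3G56060, AT1G29060 and AT3G55700 were not tested with the filter at the 60th percentile. In the list of other cell wall proteins the 3 falls became 6 in a fit of the wild-type arrays alone, 5 with a replicate block or array weights, and in that of acid phosphatases the 3 became 5 with only the wild-type arrays or array weights.

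The wild-type groups share replicate numbers, and no label states a pairing. Deviations of same-numbered arrays from their group means correlated at 0.131, 0.0172 and 0.116. Those of differently numbered arrays correlated at -0.175 to 0.0543. The values for arrays 1 and 3 lay above the criterion of 0.1 and that for array 2 below it. A weak pairing by number is thus not excluded, and the main fit did not model one. Tunicamycin array 2 correlated best with mock array 1 (0.0543). The replicate block gave 978 falls and 89 rises and called all 788 and 59 again. Destination classes from protein sequence, their hydropathy alternatives and promoter motifs were not run because the sequences were not used here. Dim signal limits calls and fold sizes, since 8 falls and 6 rises have a group mean below the filter signal.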

Other observations

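Some falls concern enzymes of the Golgi, the ER membrane and the plastid that the lists did not hold, named after their values were seen. GMII, the Golgi mannosidase II that trims N-glycans, had 241, 232 and 196 under mock and 139, 121 and 149 under tunicamycin, a log2 change of -0.71 ± 0.15 (limma's adjusted p 0.0103), and reached an adjusted p of up to 0.0597 without mock array 1, mock array 2 or tunicamycin array 2. FCLY, farnesylcysteine lyase, had 519, 421 and 437 under mock and 309, 282 and 252 under tunicamycin (-0.71 ± 0.13). TSC10A, a reductase of sphingolipid synthesis in the ER membrane, had 493, 519 and 482 under mock and 264, 288 and 310.4 under tunicamycin (-0.79 ± 0.13). TMT1, a sugar transporter of the vacuolar membrane, had 754, 697 and 695 under mock and 400.4, 407 and 496 under tunicamycin (-0.72 ± 0.13). In these 4 genes the 2 groups of arrays did not overlap.

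Falls were not limited to proteins known to pass through the ER. FATB, an acyl-ACP thioesterase of the plastid, had 1527, 1604 and 1643 under mock and 658, 722 and 866 under tunicamycin, a log2 change of -1.10 ± 0.14 (adjusted p 0.000237). ATMAK3, an N-terminal acetyltransferase, had 582, 586 and 539.7 under mock and 399, 365 and 382 under tunicamycin, -0.58 ± 0.11 (adjusted p 0.00453). The interaction passed for FATB (adjusted p 0.00516) and not for ATMAK3 (0.112).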
